A study of Homo sapiens with 6 samples.

Results

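The miR-30 family was examined on miRNA arrays through the probes of both strands of its members, miR-30a, miR-30b, miR-30c, miR-30d and miR-30e. The members were chosen by name, and 10 of the 2565 miRNA spots on each array belonged to them, 5 for the 5p strands and 5 for the 3p strands. A probe for miR-30c-1-3p, the other 3p strand of miR-30c, was read beside them. The arrays held RNA of Panc-1, a cell line established from human pancreatic ductal carcinoma, with 3 arrays of untreated control cells and 3 arrays of cells given TGF-β at 10 ng/mL for 72 h. One slide carried the control arrays and the other carried the TGF-β arrays, so the effect of the slide cannot be separated from that of the treatment. The methods speak in general of 3 or more independent experiments, but neither they nor the labels say whether the replicates on the arrays were separate cultures, and p-values therefore measure only the spread between these samples, which may be technical.

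A miRNA is cut from a hairpin whose arms give a 5p and a 3p strand. In the miR-30 family the 5p strand is usually the guide, which is loaded into an Argonaute protein and pairs through its seed with target mRNAs, and the 3p strand is the passenger, which is mostly degraded. The family is known for repressing SNAI1 and other genes of the epithelial-mesenchymal transition, the change of cell state that TGF-β can set off in carcinoma cells.

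Mature sequences are shown because the strands fall into groups by seed and some differ by a single base. They are from RefSeq (GRCh38.p14), from which 6 of the 10 members and miR-30c-1-3p were read, and the capitals mark the seed, bases 2 to 8 from the 5′ end. Part of this reference was not read, and the strands of miR-30b and miR-30d are not shown.
hsa-miR-30a-5p: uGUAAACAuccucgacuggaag
hsa-miR-30c-5p: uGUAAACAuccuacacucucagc
hsa-miR-30e-5p: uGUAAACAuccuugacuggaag
hsa-miR-30a-3p: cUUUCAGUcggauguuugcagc
hsa-miR-30e-3p: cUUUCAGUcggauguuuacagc
hsa-miR-30c-1-3p: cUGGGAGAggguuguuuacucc
hsa-miR-30c-2-3p: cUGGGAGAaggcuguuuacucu
The 3 guide strands printed here share their seed and their first 12 bases. miR-30a-5p and miR-30e-5p differ by 1 substitution, C13U, and miR-30a-3p and miR-30e-3p by G18A, with positions counted from the 5′ end. The 3p strands of miR-30c differ by G9A, U12C and C22U, written from miR-30c-1-3p to miR-30c-2-3p. The files do not give the specificity of the probes, so signal that one strand gives on the probe of another was not measured. Of the 2550 array probes that name a single miRNA, 2253 had a sequence in the part of the reference that was read, and 0 of these outside the family had the guide seed.

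The printed strands come from 4 genes at a pair of loci. MIR30E (chromosome 1, 40754355 to 40754446, plus strand) and MIR30C1 (chromosome 1, 40757284 to 40757372, plus strand) lie 2837 bases apart inside the protein-coding gene NFYC. MIR30C2 (chromosome 6, 71376960 to 71377031, minus strand) and MIR30A (chromosome 6, 71403551 to 71403621, minus strand) lie 26519 bases apart. The RefSeq gene annotation used here listed no other gene interval that spans either, and other annotations were not searched. The mature miR-30c-5p is the same from MIR30C1 and MIR30C2, so its probe reads both genes.

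The first question was which strands gave a signal. A spot counted as detected when its intensity was above the mean of the array's blank spots plus 2 SD, a limit that lay between 19.5 and 22.8 scanner units. All 5 guide strands were detected on every array, and so were miR-30a-3p, miR-30e-3p and miR-30c-2-3p, which made 8 of 10 members, beside 1282 of all 2565 miRNAs. hsa-miR-30b-3p was detected on 2 of 3 control arrays and on 3 of 3 TGF-β arrays, with signals of 18.8, 21.8 and 25.3 units without TGF-β and 22.7, 20.95 and 23.1 units with TGF-β. hsa-miR-30d-3p was detected on 2 arrays of each group, with signals of 19.2, 20.6 and 24.7 units without TGF-β and 20.9, 21.02 and 21.5 units with TGF-β. Both of these 3p strands stayed within a few units of the blank spots on all arrays, and the groups overlapped. A miRNA was tested if either group had it detected on all of its arrays, which held for 9 members and not for miR-30d-3p, beside 1457 of all 2565 miRNAs. miR-30b-3p met this condition only through the TGF-β arrays.

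**Figure D1:**
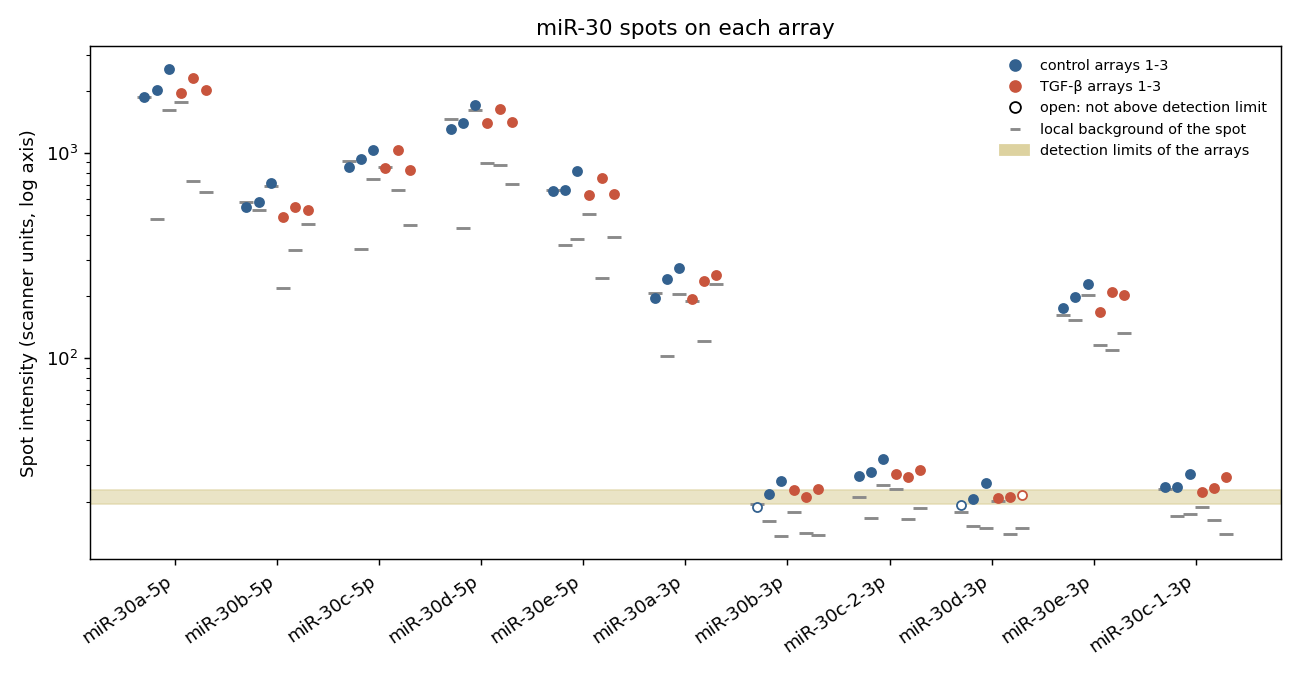
Spot intensity in scanner units (log axis) of each miR-30 probe on 3 control and 3 TGF-β arrays, with the local background of each spot as a grey dash and the range of detection limits, 19.5 to 22.8 units, as a band; open points were not above the limit of their array. The guide strands lie far above the band, while miR-30b-3p and miR-30d-3p lie at it, and on control array 1 the local background of every guide strand is at or above its signal.

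The scanner also gave a local background for each spot, and for the guide strands its ratio to the signal differed widely between arrays. On control array 1 the local background was at or above the signal for all 5 guide strands, with ratios of 1.00 to 1.11. The median ratio over the guide strands was 1.05, 0.363 and 0.724 on arrays of control cells and 0.812, 0.531 and 0.542 with TGF-β. Blank spots, by contrast, had means of 18.2 to 21.3 units. The comparison was therefore made with the blank-spot mean subtracted, followed by quantile normalization and log2, and is given beside the same comparison with the local background, corrected by limma's normexp method. That method was run with an offset of 50 units, added before log2, which keeps dim probes close together. On control array 1, miR-30b-3p was not detected and still had a local-background log2 value of 6.21. Differences between values near this level say little about a change of the strand. The SD of a guide strand within a group was 0.0012 to 0.12 on the log2 scale with the blank-spot background and 0.24 to 2.08 with the local background. Both ranges are after quantile normalization, which gives probes of equal rank the same value, and are not the spread of the signals. With blank spots, miR-30e-5p had 9.471 on control arrays 1 and 3, from spot signals of 650 and 820 units.

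The second question was whether TGF-β changed the guide strands. hsa-miR-30b-5p gave spot signals of 549, 579 and 716 units without TGF-β and 488, 545 and 528 units with TGF-β. Its normalized log2 values with the blank-spot background were 9.33, 9.23 and 9.26 without TGF-β and 9.05, 8.93 and 8.93 with TGF-β. Every TGF-β array was below every control array in the normalized values. By this fit miR-30b-5p fell by 0.30 on the log2 scale (standard error 0.064, 95% interval -0.45 to -0.16, n = 3 per group, adjusted p = 0.0197 from limma), which is a ratio of 0.81. It was the only one of the 9 tested members to pass an adjusted p of 0.05 in this fit, in which 58 of 1457 miRNAs passed (3.98%), 20 lower and 38 higher. The split over all miRNAs was 8 lower and 27 higher with no normalization between arrays and 4 lower and 27 higher in the deposited values.

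The call of miR-30b-5p depended on how the arrays were processed. Its log2 values with the local background were 6.15, 6.63 and 6.44 without TGF-β and 8.90, 7.43 and 6.92 with TGF-β. Every TGF-β array was then above every control array, the reverse of the order with blank spots. The control values lay at or not far above the level of undetected probes. On control array 1 the 6.15 of miR-30b-5p was below the 6.21 of miR-30b-3p, which was not detected there. The reversal for miR-30b-5p is thus measured against control values with little signal left after the correction. The log2 difference was 1.34 (standard error 0.51, 95% interval 0.095 to 2.59, adjusted p = 0.99 from limma). The local background of the miR-30b-5p spot was 1.05, 0.913 and 0.969 of the signal on arrays of control cells and 0.451, 0.617 and 0.855 of it with TGF-β. The share was thus higher on every control array than on any TGF-β array, while the blank-spot mean does not depend on the spot.

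With blank spots, the call was also lost with median scaling (-0.22, adjusted p = 0.308 from limma), with no normalization between arrays (-0.24, adjusted p = 0.891 from limma), in the deposited values (-0.11, adjusted p = 0.95 from limma) and in limma without the intensity trend (adjusted p = 0.248). Leaving out control replicate 1, control replicate 2, TGF-β replicate 2 or TGF-β replicate 3 gave adjusted p of 0.0573, 0.0736, 0.126 and 0.09 from limma, with log2 differences between -0.35 and -0.27 over all 6 arrays left out in turn.

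hsa-miR-30d-5p was the guide strand whose difference was above 0 with blank spots. Its log2 values were 10.55, 10.43 and 10.43 without TGF-β and 10.58, 10.55 and 10.45 with TGF-β. The groups overlapped, and the difference of 0.058 had a 95% interval of -0.073 to 0.19 (adjusted p = 0.75 from limma). It ran from 0.032 to 0.097 with single arrays left out, and was 0.040 with median scaling, 0.016 with no normalization between arrays and 0.14 in the deposited values. Corrected for the local background, its log2 values were 5.99, 9.06 and 7.19 without TGF-β and 9.67, 8.78 and 9.09 with TGF-β. Control arrays 1 and 3, where the local background was 1.11 and 0.952 of the signal, were then below the other arrays, and the difference was 1.77 with a 95% interval of -1.11 to 4.64 (adjusted p = 0.99 from limma).

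With blank spots, hsa-miR-30e-5p, whose gene lies in NFYC, had log2 values of 9.47, 9.47 and 9.47 without TGF-β and 9.33, 9.38 and 9.21 with TGF-β. The TGF-β arrays were all below the control arrays, by a mean difference of -0.17 (95% interval -0.30 to -0.026, adjusted p = 0.248 from limma). hsa-miR-30a-5p, which differs from it by a single base, had log2 values of at least 11.05 without TGF-β and from 10.91 up to just under that with it. The groups lay apart by a narrow margin, with a difference of -0.11 (95% interval -0.23 to 0.012, adjusted p = 0.427 from limma). miR-30c-5p differed by -0.14 (95% interval -0.30 to 0.022, adjusted p = 0.446 from limma), and its groups overlapped. The local background gave differences of 0.43 for miR-30e-5p, 0.75 for miR-30a-5p and -0.091 for miR-30c-5p, with overlapping groups. The size of these small differences depended on the arrays and on the scaling. With blank spots and single arrays left out they ran from -0.14 to -0.067 for miR-30a-5p, -0.19 to -0.057 for miR-30c-5p and -0.21 to -0.11 for miR-30e-5p, and each was nearest to 0 without TGF-β replicate 3. With median scaling of the blank-spot values they were -0.0072 for miR-30a-5p, -0.044 for miR-30c-5p and -0.063 for miR-30e-5p, and with no normalization between arrays -0.031, -0.068 and -0.086. In the deposited values they were above 0, at 0.096, 0.059 and 0.041.

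The 3p strands were compared in the same fit. miR-30a-3p and miR-30e-3p, which share a seed, had differences of -0.12 and -0.047 with blank spots (adjusted p = 0.641 and 0.863 from limma), and -0.25 and 0.27 with the local background. hsa-miR-30c-2-3p had spot signals of 26.7, 28.0 and 32.4 units without TGF-β and 27.2, 26.3 and 28.6 units with TGF-β. After normalization its TGF-β arrays were all below its control arrays, with a difference of -0.28 (95% interval -0.58 to 0.023, adjusted p = 0.415 from limma), compared with -0.063 with the local background. Its local-background values, 6.22 to 6.44, lay near the level of undetected probes, so -0.063 says little about its change. miR-30c-1-3p had a difference of -0.32 (95% interval -0.81 to 0.17, adjusted p = 0.584 from limma) with overlapping groups, and miR-30b-3p one of 0.24 (95% interval -0.76 to 1.24, adjusted p = 0.897 from limma). Since miR-30b-3p passed the filter only through the TGF-β arrays, where its mean was higher, no conclusion is drawn from its test. With single arrays left out, the blank-spot differences ran from -0.20 to -0.071 for miR-30a-3p, -0.070 to -0.017 for miR-30e-3p, -0.34 to -0.23 for miR-30c-2-3p, -0.49 to -0.13 for miR-30c-1-3p and -0.31 to 0.56 for miR-30b-3p. The value of miR-30c-1-3p nearest to 0 was without TGF-β replicate 1, and that of miR-30e-3p without control replicate 1.

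**Figure D2:**
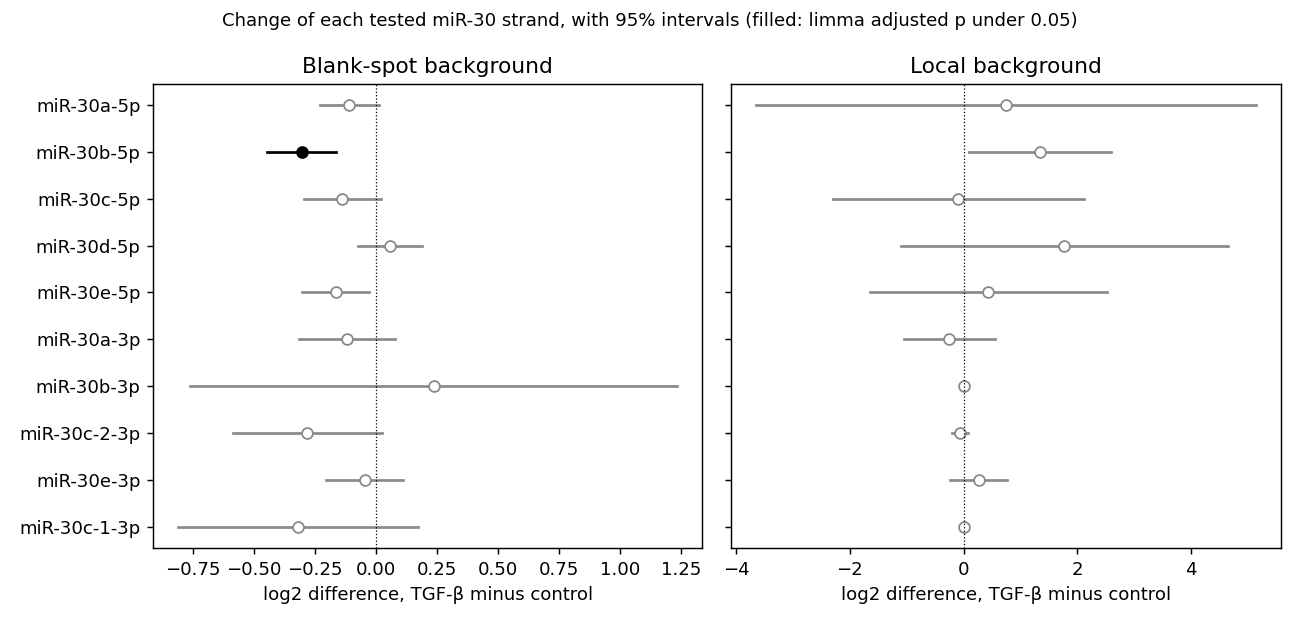
Log2 difference (TGF-β minus control, n = 3 arrays per group) of each tested miR-30 strand and miR-30c-1-3p with its 95% interval, with the blank-spot background on the left and the local background on the right; the axes differ. miR-30b-5p is at -0.30 on the left, the only filled point, and at 1.34 on the right, where no point is filled.

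Over the family, 4 of the 9 tested members had every TGF-β array below every control array with blank spots (miR-30a-5p, miR-30b-5p, miR-30e-5p and miR-30c-2-3p), compared with 10.2% of all tested miRNAs. None had the opposite order, which 8.85% of all tested miRNAs had. This count depended on the quantile normalization, by a comparison added after the data were seen. It was 2 of 9 with median scaling (7.07% of all) and 2 of 9 with no normalization between arrays (5.97% of all), miR-30b-5p and miR-30c-2-3p in both, and 0 of 9 in the deposited values (2.13% of all). Under the local background 0 of the 9 were apart and lower (3.23% of all) and 1, miR-30b-5p, was apart and higher (3.91% of all). The local-background fit called 0 members and 0 of 1457 miRNAs in limma (0%), with 34 miRNAs and 1 member at an unadjusted p under 0.05, and the methods' t-test called 0 after adjustment and 39 before it. The median difference of the tested members was -0.12 with blank spots and 0.27 with the local background, beside -0.013 and -0.0044 for all tested miRNAs. Differences were below 0 for 7 of 9 members with blank spots (765 of all 1457), but for 3 of 9 with the local background (816 of all 1457) and 3 of 9 in the deposited values, whose median over all miRNAs was 0.11.

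With blank spots, a scale factor common to an array cancels when one guide strand is set against another on the same array. With the local background it does not fully cancel, because the offset of 50 units is added before log2. The comparison of guide strands, without normalization between arrays, was chosen after the data were seen. The level of such a difference is not a ratio of RNA amounts because the probes differ. miR-30b-5p minus miR-30d-5p was -1.28, -1.30 and -1.28 on arrays of control cells and -1.55, -1.63 and -1.46 on TGF-β arrays, with blank spots. The control arrays had an SD of 0.012, and all TGF-β arrays lay below them, a mean difference of -0.26 (2-sided p = 0.1 in an exact permutation test, the lowest possible with 3 arrays against 3). miR-30a-5p minus miR-30b-5p was 1.82, 1.85 and 1.87 on arrays of control cells and 2.06, 2.13 and 1.98 with TGF-β, a mean difference of 0.21 with groups apart. For miR-30b-5p minus miR-30e-5p the group means differed by -0.15 with groups apart, and miR-30b-5p minus miR-30c-5p by -0.17 with groups that overlapped. Without TGF-β replicate 2 these 2 differences were -0.10 each.

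Of the 10 pairs of guide strands, 5 had groups apart with blank spots, 3 of them among the 4 pairs with miR-30b-5p, and the smallest p after Benjamini-Hochberg adjustment over the 10 exact permutation tests was 0.2. Among all 821121 pairs of the 1282 miRNAs detected on every array, 18.5% had groups apart. Under the local background 2 of the 10 pairs had groups apart, 0 of them with miR-30b-5p, beside 5.33% of all pairs. The mean difference of miR-30b-5p against miR-30d-5p was then -0.39, while those against miR-30a-5p, miR-30c-5p and miR-30e-5p were 0.65, 1.42 and 1.00, the reverse of the blank-spot direction. A group difference in such a value does not show which strand of the pair it comes from.

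**Figure D3:**
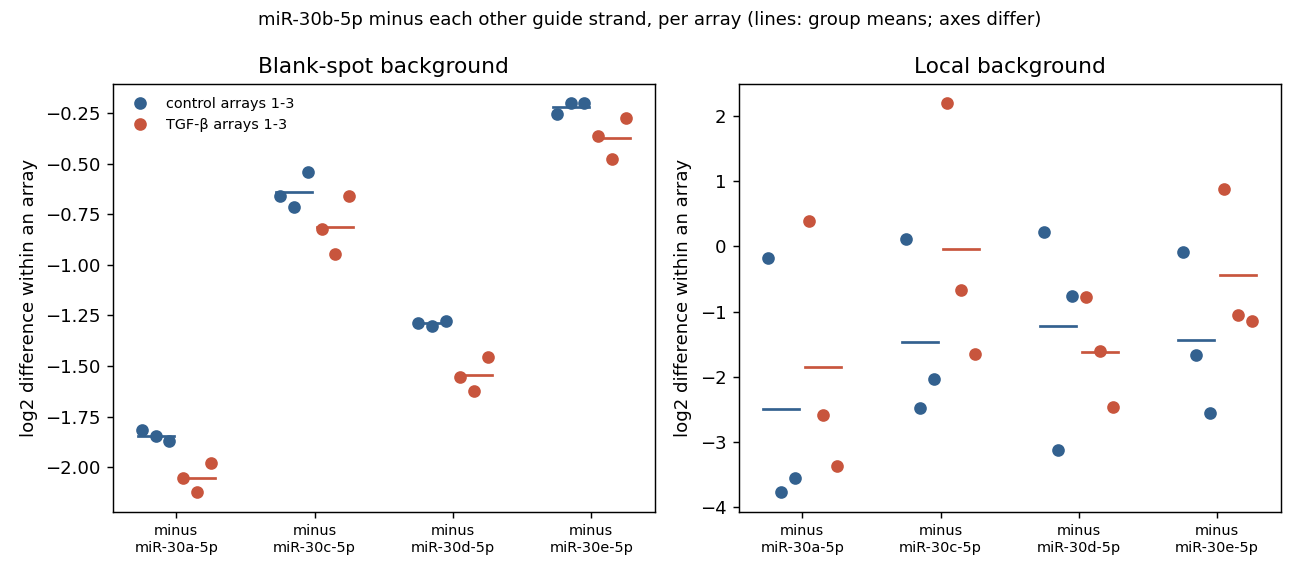
Log2 difference between miR-30b-5p and each other guide strand on each array, without normalization between arrays, for 3 control and 3 TGF-β arrays with group means as lines; blank-spot background on the left, local background on the right, with different axes. Against miR-30d-5p the control arrays lie at -1.30 to -1.28 and the TGF-β arrays at -1.63 to -1.46 on the left, and the groups overlap on the right.

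The third question was whether the strands of a precursor moved apart. The 5p to 3p ratio was computed within each array for 414 precursors with both strands tested, 5 of them of the miR-30 family. With blank spots, limma called 0 of the miR-30 precursors and 0 of all (0%), with 33 at an unadjusted p under 0.05, and with the local background it called 0 and 0 (0%), with 4 at an unadjusted p under 0.05. The log2 ratio for miR-30a was 3.39, 3.15 and 3.32 without TGF-β and 3.44, 3.39 and 3.06 with TGF-β. Its groups overlapped, and the change was 0.0099 with a 95% interval of -0.42 to 0.44 (adjusted p = 0.991 from limma), compared with 1.00 and an interval of -1.23 to 3.22 with the local background. The log2 ratio for miR-30e was 1.92, 1.98 and 2.02 without TGF-β and 1.84, 1.93 and 1.80 with TGF-β. One TGF-β array lay within the control range, and the change was -0.12 with a 95% interval of -0.49 to 0.26 (adjusted p = 0.933 from limma). It was -0.027 with no normalization between arrays, -0.028 in the deposited values and 0.17 with the local background. Quantile normalization does not act as 1 factor per array, so these ratios depend on it.

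For miR-30b the log2 ratio was 9.33, 7.72 and 7.45 without TGF-β and 7.21, 7.92 and 7.75 with TGF-β. Control array 1, on which miR-30b-3p was not detected, was the highest, and its 3p value was set to the floor of 1 unit, so the size of the ratio there depends on the floor. The change was -0.54 with this floor, -0.21 with a floor of 2 units, 0.040 without control replicate 1 and 0.11 in the deposited values. Without background correction it was -0.31 and was called (adjusted p = 0.0484 from limma). The 3p strand passed the filter only through the TGF-β arrays, so no conclusion is drawn from that call. The 5p strand of miR-30c set against miR-30c-1-3p and miR-30c-2-3p gave changes of 0.18 and 0.14, with overlapping groups. With no normalization between arrays they were 0.24 and 0.22. The change for miR-30c-2 ran from 0.052, without TGF-β replicate 2, to 0.22 with single arrays left out, and that for miR-30c-1 was -0.036 without TGF-β replicate 1. With the local background the changes ran from -0.11 for miR-30c-1 to 1.33 for miR-30b. There the 3p strands of miR-30b and miR-30c lay near the level of undetected probes, so these ratios follow mainly the 5p strand.

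**Figure D4:**
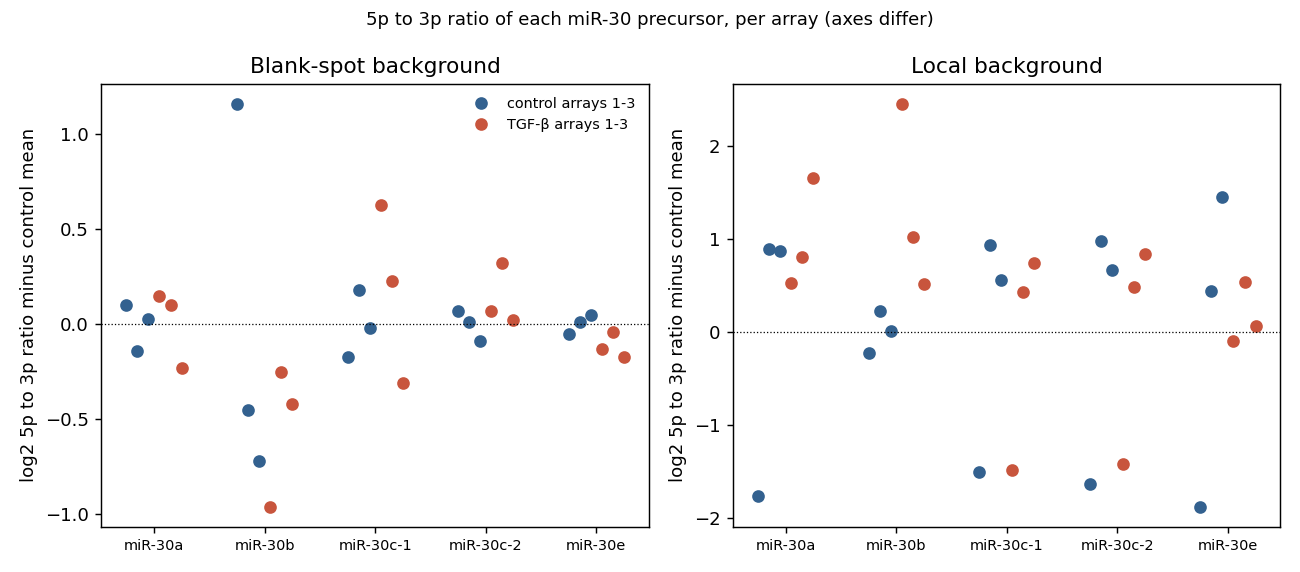
Log2 5p to 3p ratio of 5 miR-30 precursors on each array, minus the mean of the control arrays, for 3 control and 3 TGF-β arrays; blank-spot background on the left, local background on the right, with different axes. The groups overlap for all 5 precursors on the left, where control array 1 stands high for miR-30b, and for 4 of 5 on the right, where miR-30b is higher on every TGF-β array; over all 414 precursors, groups were apart for 12.3% on the left and 6.76% on the right.

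The mean log2 value of the 5 guide strands with blank spots was 10.08, 10.02 and 10.02 without TGF-β and 9.96, 9.94 and 9.82 with TGF-β. The TGF-β arrays were below the control arrays, with a mean difference of -0.13. In comparisons added after the data were seen, it was -0.085 without TGF-β replicate 3. It was -0.058 with median scaling, -0.082 with no normalization between arrays and 0.045 in the deposited values, and the groups overlapped under these 3 scalings. With the local background the guide mean was 6.12, 8.41 and 8.09 without TGF-β and 8.27, 8.45 and 8.43 with TGF-β. That difference of 0.84 became 0.16 without control replicate 1, left out after the data were seen. Among 1273 other miRNAs detected on all 6 arrays, those most like the guide mean by Pearson's r over the arrays were miR-650 (0.995), miR-331-3p (0.985), miR-326 (0.972), miR-10a-5p (0.969) and let-7a-3p (0.966). With the local background their r with the guide mean was -0.954, -0.619, -0.988, 0.451 and 0.128. These values were picked as the highest of many and describe 6 arrays only.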

How the data were processed

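The authors deposited, for each of 3200 spots of a 1-colour array, the median scanner intensity and that of the local background, on a linear scale and without normalization. They also deposited processed intensity values, whose method is not named in the sources used here. These were rebuilt by subtracting the mean of the blank spots (5% left out at each end), scaling so that detected miRNAs had a median of 25 per array and rounding, with a largest difference of 0.5 units.

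For the main comparison the trimmed mean of 320 blank spots was subtracted, miRNA probes were quantile normalized, values were floored at 1 unit and log2 was taken. The local background was corrected with normexp (offset 50) on all spots and quantile normalized. Blank spots were taken as the main background because the deposited values use them and bright spots had a high local background. Control spots were left out and 3 flagged miRNA spots, none of the family, set as missing. limma 3.58.1 (lmFit and eBayes with an intensity trend, without it for the 5p to 3p ratios) in R 4.3.3 compared 3 arrays with 3, with Benjamini-Hochberg adjustment over the 1457 miRNAs that either group had detected on all its arrays or over 414 precursors. Single values were tested with a 2-sided exact permutation test. Plots used matplotlib 3.10.9 under Python 3.11.15. The procedure was tested on simulated data, where the share of false calls was above the threshold for the 5p to 3p ratios. Many changed probes within a few units of the blank spots were missed there, so a dim 3p probe without a call may still differ, and the local-background correction made changes smaller than simulated. The simulated local background lay near the blank mean for every spot, while in the data it reached 1.11 of a guide strand's signal. The simulation therefore does not show how that correction acts on the guide strands. The condition for passing was replaced after the first one failed for these dim probes. The number of arrays limits the precision.

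The miRNAs named were the 10 members, miR-30c-1-3p, any probe with the guide seed, the 5 miRNAs most correlated with the guide mean, 6 miRNAs repressing the epithelial-mesenchymal transition, 14 known in the field as raised by TGF-β, and markers of acinar and islet, blood, endothelial and epithelial cells. Members, lists and the blank-spot background were chosen with earlier results of these data known, which used the local background. Alternatives were other backgrounds, scalings, floors, filters and tests, the replicate number as a block, the deposited values, a detection limit of 3 SD and each array left out in turn.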

Additional observations from a re-analysis of the deposited data

How the results depend on the processing

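Over 17 alternatives, miR-30d-5p and miR-30c-2-3p kept their direction and stayed uncalled, while miR-30b-5p kept direction and call in 6, lost the call in 10 and reversed in 1 (adjusted p 0.0166 to 0.99 from limma or the methods' t-test). The number of members called, 1, was 0 with the local background, median scaling, no normalization, the deposited values, limma without the trend, the methods' t-test (3 before adjustment) and no filter on dim probes, and 0 to 1 with single arrays left out. The number of miRNAs called, 58, was 0 with the local background, 35 without normalization, 31 in the deposited values, 31 without the trend, 17 by the methods' t-test (195 before adjustment), 20 without the filter and 26 to 51 with single arrays left out. For the 5p to 3p ratios the count of 0 became 16 without background correction, and 0 to 1 with single arrays left out. Without background correction miR-30b was among the calls (-0.31, adjusted p = 0.0484 from limma), although on simulated data this step made more false calls than the threshold allows. Its 3p strand passed the filter only through the TGF-β arrays, so no conclusion is drawn from that call.

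Some directions turned, for reasons that were not tested. With the local background the differences were 0.75 for miR-30a-5p, 1.34 for miR-30b-5p, 0.43 for miR-30e-5p, 0.27 for miR-30e-3p and 0.014 for miR-30c-1-3p, and the ratio changes were 1.33 for miR-30b, -0.11 for miR-30c-1, -0.028 for miR-30c-2 and 0.17 for miR-30e. The local-background values of miR-30c-1-3p, 6.22 to 6.27, lay near the level of undetected probes, so its sign there is not read as a direction. In the deposited values the differences were 0.096 for miR-30a-5p, 0.059 for miR-30c-5p, 0.041 for miR-30e-5p, 0.069 for miR-30a-3p, 0.069 for miR-30e-3p and -0.26 for miR-30b-3p, and the miR-30b ratio differed by 0.11. The median of all miRNAs there was 0.11, and relative to it the guide strands a, b, c, d and e lay at -0.014, -0.22, -0.051, 0.033 and -0.069, the main directions. A floor of 2 units gave -0.097 for miR-30b-3p. No background correction gave ratio changes of -0.076 for miR-30c-1 and -0.050 for miR-30c-2. With single arrays left out, miR-30b-3p ran from -0.31 to 0.56, and the ratio changes from -0.062 to 0.14 for miR-30a, -0.89 to 0.040 for miR-30b and -0.036 to 0.44 for miR-30c-1.

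Alternatives chosen after the data were seen were run on the guide strands. With the local background and single arrays left out, differences ran from -0.47 to 1.30 for miR-30a-5p, -0.96 to 0.64 for miR-30c-5p and -0.34 to 1.00 for miR-30e-5p. They stayed above 0 for miR-30b-5p, at 0.82 to 1.68, and for miR-30d-5p, at 1.17 to 2.48. Within arrays, the local background gave changes of 0.65, 1.42 and 1.00 for miR-30b-5p against miR-30a-5p, miR-30c-5p and miR-30e-5p, while with single arrays left out and blank spots all 4 changes stayed below 0.

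With the replicate number as a block, the count was 61, with 39 higher and 22 lower, and miR-30b-5p stayed called (-0.30, adjusted p = 0.0166 from limma). Same-numbered arrays had correlated deviations of 0.13, 0.11 and -0.028 over 1282 miRNAs, and only number 1 correlated best with its own number, so the numbers were not taken as pairs. At 3 SD above the blank mean, 8 members were detected on all arrays, as at 2 SD.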

Other observations

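Other miRNAs tied to the same treatment were read beside the miR-30 strands. Of 14 miRNAs known in the field as raised by TGF-β, all tested, 3 rose (miR-181a-5p, miR-181b-5p and miR-23a-3p) and 2 fell (miR-10a-5p and miR-10b-5p) at an adjusted p under 0.05 in limma with blank spots, beside 3.98% of all 1457 tested miRNAs, and the methods' t-test called 2 of the 14 after adjustment and 5 before it. The differences of miR-10a-5p and miR-10b-5p were above 0 with the local background, at 1.06 and 0.23. In limma 0 passed with the local background, where 2 had an unadjusted p under 0.05 and the methods' t-test called 0. The median difference of the list was 0.050 with blank spots, beside -0.12 for the miR-30 members. With the local background the medians were 0.15 for the list and 0.27 for the members, the reverse order. Of 6 miRNAs that repress the epithelial-mesenchymal transition, the miR-200 family and miR-205-5p, 2 were tested and 0 called in limma, with 0 at an unadjusted p under 0.05 and 0 by the methods' t-test, and their probes stayed near the blank spots, with at most 31.0 units for miR-200b-3p.

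Markers of other cells were read on the same arrays. Of the pancreatic acinar and islet markers, 4 had a spot, 0 were tested, and their summed signal above blank was -0.80 to 2.46 units per array. Of 7 blood cell markers, 5 were tested and 0 called in limma, with 1 at an unadjusted p under 0.05 and 0 by the methods' t-test, and the sum was 33.4 to 44.5 units. That marker was miR-486-5p, the brightest spot of the list, with a blank-spot difference of -0.41 (adjusted p = 0.217 from limma). Every TGF-β array was below every control array, and the local background gave 0.0045. The signals of miR-486-5p were at most 41.9 units, below the offset of 50 units, so the local-background value says little about a change. miR-126-3p, the endothelial marker, moved in the same direction as miR-30b-5p, with signals above blank of 123, 130 and 157 units without TGF-β and 95.6, 114 and 117 units with TGF-β. It fell by 0.32 on the log2 scale (adjusted p = 0.042 from limma) with blank spots, a call that the methods' t-test did not make after adjustment, and differed by -0.095 with the local background (adjusted p = 0.99 from limma). Its part in the result for miR-30b-5p was not tested.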
